A study of Caenorhabditis elegans with 34 samples.

Results

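Between the last larval stage (L4) and adulthood the RNA difference of wild-type minus glp-4 worms rose for some genes and fell for others. These genes are described here. For each array probe the growth was computed as the wild-type minus glp-4 difference in adults, minus the same difference at L4. It equals the wild-type change from L4 to adult minus the glp-4 change. A probe was tested where all 4 groups held at least 2 values, which left 11043 of the 13323 probes and 15 of the 34 arrays of the series. A probe with a significantly positive growth is called a gain, and one with a significantly negative growth a loss. The growth is signed, so a loss can be a smaller excess in wild type or a larger excess in glp-4. A gain can likewise be a smaller excess in glp-4. Probes were not chosen by their values.

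The series measured messenger RNA of Caenorhabditis elegans on spotted arrays with a red and a green channel. The 4 groups of this contrast were wild-type (N2) adults on 3 arrays, glp-4(bn2) adults on 4, wild-type L4 larvae on 4 and glp-4(bn2) L4 larvae on 4. Per the labels all of these worms were synchronized, and the adults were young adults. The L3 and L2 larvae of both strains and 5 arrays that set fem-3(q23) worms against fem-1(hc17) worms were used as further readouts. At the restrictive temperature glp-4(bn2) worms have no germ line, per the labels, which describe fem-3(q23) worms as making sperm only and fem-1(hc17) worms as making oocytes only, both with a female soma. The labels name no sorting or dissection of tissues, so RNA of whole worms was compared.

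The hermaphrodite germ line of C. elegans makes sperm during the L4 stage and then switches to oocytes, so a worm passes from one kind of gamete to the other around the adult moult. Growing oocytes are large cells that are loaded with RNA and protein for the embryo, while spermatids shut down transcription. A worm without germ cells passes through the same moults with somatic tissues alone. In RNA from whole worms, fewer cells of a type and less RNA per cell cannot be told apart.

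Every value is a log ratio of worm RNA over a reference pool of wild-type RNA, read here as log2. No source used here gives the base, so folds hold only if it is 2. The 15 arrays held 10876 to 11696 values each. Titles name the reference as a mixed control on all adult arrays and on L4 replicates 2 and 4 of both strains, and in another wording on L4 replicates 1 and 3. Any difference between pools that is the same for both strains cancels in the growth of a probe without missing L4 values. It does not cancel in the change of either strain. Of the 11043 probes tested, 9475 had a value on all 15 arrays. The details in the labels read L3 for wild-type L4 replicate 1 and L34 for wild-type L4 replicate 4. The title of glp-4 adult replicate 1 has another time code than the other adult arrays. Wild-type L4 replicate 2 stood nearer to the adults than its group: its mean correlation with wild-type adult arrays over probes was 0.69, against 0.526, 0.414 and 0.336 for replicates 1, 3 and 4. Of 38 marker genes of germ line, gametes and somatic tissues, only 1 (ule-3) has a named probe, so the labelled tissues could not be checked by name.

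In all, 539 probes were gains and 188 were losses at an adjusted p under 0.05 from limma, a linear model with a moderated spread, which is 4.88% and 1.7% of the probes tested. Gains ran from 0.64 to 8.36 log2 with a median of 1.30, and losses from -6.36 to -0.63 with a median of -1.25. A growth of at least 2-fold was found for 445 gains and 147 losses. The largest gain, 8.36, belongs to a probe without a gene name and rests on 2 to 3 values in the L4 groups. The median over all probes tested was -0.06. Gene names were available for 211 gains and 94 losses, and 65 gains and 10 losses carry a gene-class symbol.

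The number of calls differed between fits, which changed the arrays, the block or both. With the 15 arrays fitted alone there were 199 gains and 54 losses, with batch number as a replicate block 0 and 0, and with only the arrays of the mixed control wording 0 and 0. The smallest adjusted p was 0.058 with the block and 0.123 with that wording alone, and 2103 and 1094 probes had an unadjusted p under 0.05. All 727 called probes kept their sign with the block, and all 683 of them that could be tested did so with the mixed wording alone; these fits share arrays with the reported one, so the signs are not independent. The gains numbered 289 without wild-type adult replicate 2, 214 without wild-type adult replicate 4, 327, 873, 280 and 346 when wild-type L4 replicate 1, 2, 3 or 4 was left out, and 294 and 349 when glp-4 L4 replicate 3 or 4 was. The losses numbered 77, 302 and 46 without wild-type adult replicates 2, 3 and 4 in turn, 124 without glp-4 adult replicate 2, 71 and 62 when wild-type L4 replicate 1 or 3 was left out, and 90, 74 and 70 when glp-4 L4 replicate 2, 3 or 4 was.

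Most gains went with a rise in wild type, and fewer with a fall in glp-4. The wild-type change was called higher for 10.4% and lower for 12.0% of all probes, and the glp-4 change higher for 2.61% and lower for 5.79%. Among the 539 gains, 386 (71.6%) had a called rise in wild type and no called change in glp-4, with median changes of 1.05 in wild type and -0.28 in glp-4. Another 68 (12.6%) had a called fall in glp-4 alone, with medians of 0.39 in wild type and -0.77 in glp-4. In 38 (7.1%) wild type rose and glp-4 fell, with medians of 0.75 and -0.72, and in 47 (8.7%) neither change was called. No gain had a called fall in wild type or a called rise in glp-4. The wild-type change was the larger of the pair in 420 of the 539. Because the growth is the difference of these changes, the split describes the gains and tests nothing further. With the mixed wording alone the wild-type change had 4 calls higher and 19 lower and the glp-4 change 5 and 2, so the split cannot be drawn there.

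Losses were also mainly changes in wild type. Of 188 losses, 125 (66.5%) had a called fall in wild type without a called rise in glp-4, with medians of -1.11 and 0.21, and 3 of these fell in glp-4 too. A called rise in glp-4 without a called fall in wild type marked 40 (21.3%), with medians of -0.35 in wild type and 0.91 in glp-4, and 1 of these rose in wild type too. Both changes were called, in opposite directions, in 2, and neither in 21.

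**Figure D1:**
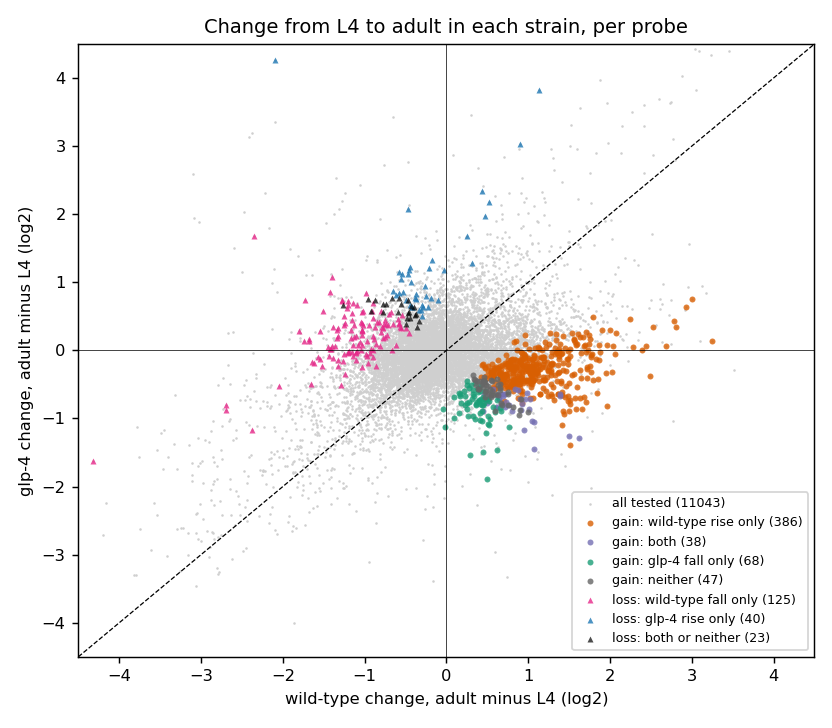
Each point is a probe, with its wild-type change from L4 to adult on the x axis and its glp-4 change on the y axis (both log2, limma estimates); the dashed line marks equal changes, circles are gains and triangles losses, and 8 probes lie outside the axes. The 386 gains with a wild-type rise only spread along the x axis, while the 68 with a glp-4 fall only lie below 0 on the y axis.

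Among genes with a gene-class symbol whose wild-type level rose without a called change in glp-4, tost-1 (chromosome III) had the largest growth. This gene is listed here with small RNA and germ granule genes. Its log2 ratios were 1.12, 0.24 and 0.96 in wild-type adults, against -2.73, -3.78, -3.85 and -3.41 in glp-4 adults. At L4 they were -1.04, -0.46, -1.70 and -1.82 in wild type, against -3.30, -2.93, -3.33 and -2.93 in glp-4. The strains did not overlap at either stage, every wild-type adult array stood above every wild-type L4 array, and the glp-4 arrays of the stages overlapped. The growth was 2.35 ± 0.39 (SE, adjusted p = 0.00165), made of a wild-type change of 2.02 and a glp-4 change of -0.32.

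fbxl-2 (III), which encodes an F-box protein with leucine-rich repeats, had the same layout. Its values were 0.58, 0.88 and 0.98 in wild-type adults, against -2.49, -3.27, -2.69 and -3.30 in glp-4 adults. At L4 they were -1.36, -0.28, -1.70 and -1.64 in wild type, against -2.84, -3.16, -2.84 and -2.67 in glp-4. The growth was 2.12 ± 0.36 (adjusted p = 0.0019), while the glp-4 change was -0.06. In both genes wild-type L4 replicate 2 was the highest of its group; without it the growth was 2.61 for tost-1 and 2.44 for fbxl-2.

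zipt-11 (I), a transporter of the ZIP zinc family, stood apart between strains in adults and overlapped at L4. Its values were 1.66, 0.53 and 1.16 in wild-type adults, against -0.96, -0.54, -0.64 and -0.87 in glp-4 adults. At L4 the strains overlapped, with -0.69, -0.09, -0.78 and -0.23 in wild type and -0.91, -0.29, -0.21 and -0.24 in glp-4. The difference was 1.87 in adults and -0.03 at L4, and the growth was 1.91 ± 0.39 (adjusted p = 0.0067). Of 6 zinc transporters of this family that were tested, zipt-1 (I, growth 1.27 ± 0.31) and zipt-3 (II, 0.77 ± 0.22) were gains as well, both through a wild-type rise, and 0 were losses; with the 15 arrays alone zipt-11 was the 1 gain of the list. zipt-13 (X) and zipt-2.1 (IV) had negative estimates of -0.89 and -0.70 that were not called.

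Further named gains of this class were sut-6 (I), a suppressor of tau toxicity by its name, at 1.70 ± 0.27, melo-2 (I) at 1.70 ± 0.32, srdf-2.1 (X) at 1.84 ± 0.37 and arle-14 (III) at 1.73 ± 0.39. eif-2A (II), named as a translation initiation factor, grew by 1.50 ± 0.31. pgm-3 (IV), a phosphoglucomutase family gene by its name, grew by 1.99 ± 0.43 on 2 to 4 values per group. Among probes with a sequence name only, C05C10.5 (II) reached 3.11 ± 0.85, T21C9.13 (V) 2.90 ± 0.71 and T24C4.5 (III) 2.51 ± 0.74. C05C10.5 had -1.44, 1.06, -2.55 and -3.23 on the wild-type L4 arrays, so that replicate 2 reached into the range of the wild-type adults at 2.37, 0.84 and 1.93; with the 15 arrays alone its adjusted p was 0.118.

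In 5 named genes wild type rose and glp-4 fell, both called. sluh-7 (V), the worm counterpart of the yeast splicing factor Slu7, had 1.14, 1.24 and 1.16 in wild-type adults, against -1.71, -1.60, -2.24 and -1.64 in glp-4 adults. At L4 it had 0.11, 0.87, -0.23 and -0.20 in wild type, against -1.15, -0.51, -0.43 and -0.93 in glp-4. The strains did not overlap at either stage and the stages did not overlap within either strain. Wild type rose by 1.04, glp-4 fell by 1.04, and the growth was 2.08 ± 0.40 (adjusted p = 0.00416).

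penr-1 (V) had the smallest adjusted p of the named genes, 0.000816, with a growth of 1.88 ± 0.28. Its values were 0.56, 0.62 and 0.46 in wild-type adults, against -1.69, -2.55, -2.29 and -2.53 in glp-4 adults. At L4 they were -0.37, -0.22, -0.63 and -0.63 in wild type, against -1.95, -1.11, -1.27 and -1.27 in glp-4. Strains stood apart at both stages; the glp-4 stages overlapped on 1 array, L4 replicate 1. ctf-18 (IV), a subunit of an alternative clamp loader of DNA replication, grew by 1.46 ± 0.28 with changes of 0.87 in wild type and -0.59 in glp-4. trmt-6 (I), a subunit of a tRNA methyltransferase, grew by 1.45 ± 0.27 with changes of 0.61 and -0.83, and syf-1 (I), a spliceosome component, by 1.28 ± 0.26 with 0.62 and -0.66.

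Gains in which glp-4 fell without a called change in wild type numbered 12 among genes with a class symbol. daf-41 (III), the largest of them, encodes the p23 co-chaperone of HSP90. It had 0.77, 0.83 and 1.02 in wild-type adults, against -1.24, -0.71 and -0.72 on the 3 glp-4 adult arrays with a value. At L4 it had 0.29, 0.61, 0.38 and 0.27 in wild type, against -0.45, 0.67, 0.54 and 0.54 in glp-4. The strains stood apart only in adults, and the stages did not overlap within either strain. The glp-4 change was -1.21, the wild-type change of 0.49 was not called, and the growth was 1.70 ± 0.36 (adjusted p = 0.00887).

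ahsa-1 (V), the activator of the HSP90 ATPase, grew by 1.60 ± 0.41 (adjusted p = 0.0269) on 2 to 4 values per group. Its glp-4 values were -1.42, -1.71 and -1.42 in adults, against -0.85, -0.31 and -0.14 at L4. dph-5 (II), a methyltransferase of diphthamide synthesis on elongation factor 2, changed on the glp-4 side. It had 0.12, 0.42 and 0.42 in wild-type adults, against -0.58, -1.13, -0.97 and -1.22 in glp-4 adults. At L4 it had 0.38, 0.06, 0.56 and 0.34 in wild type, against -0.23, 0.18, 0.44 and 0.18 in glp-4. Its wild-type change was -0.01 and its glp-4 change -1.12, for a growth of 1.11 ± 0.31 (adjusted p = 0.0375). The call of dph-5 was lost in 14 of the other settings run, centring of the arrays among them, and that of daf-41 in 1.

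The same class held cdk-11.2 (X), a cyclin-dependent kinase family gene, at 1.14 ± 0.32, and tceb-3 (II), the elongin A gene of transcription elongation, at 0.94 ± 0.20. krr-1 (V), a factor of small ribosomal subunit assembly, stood at 1.04 ± 0.28, and the splicing gene prp-9 (II) at 0.78 ± 0.22. The glp-4 changes of these genes were -0.74, -0.55, -0.76 and -0.63.

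**Figure D2:**
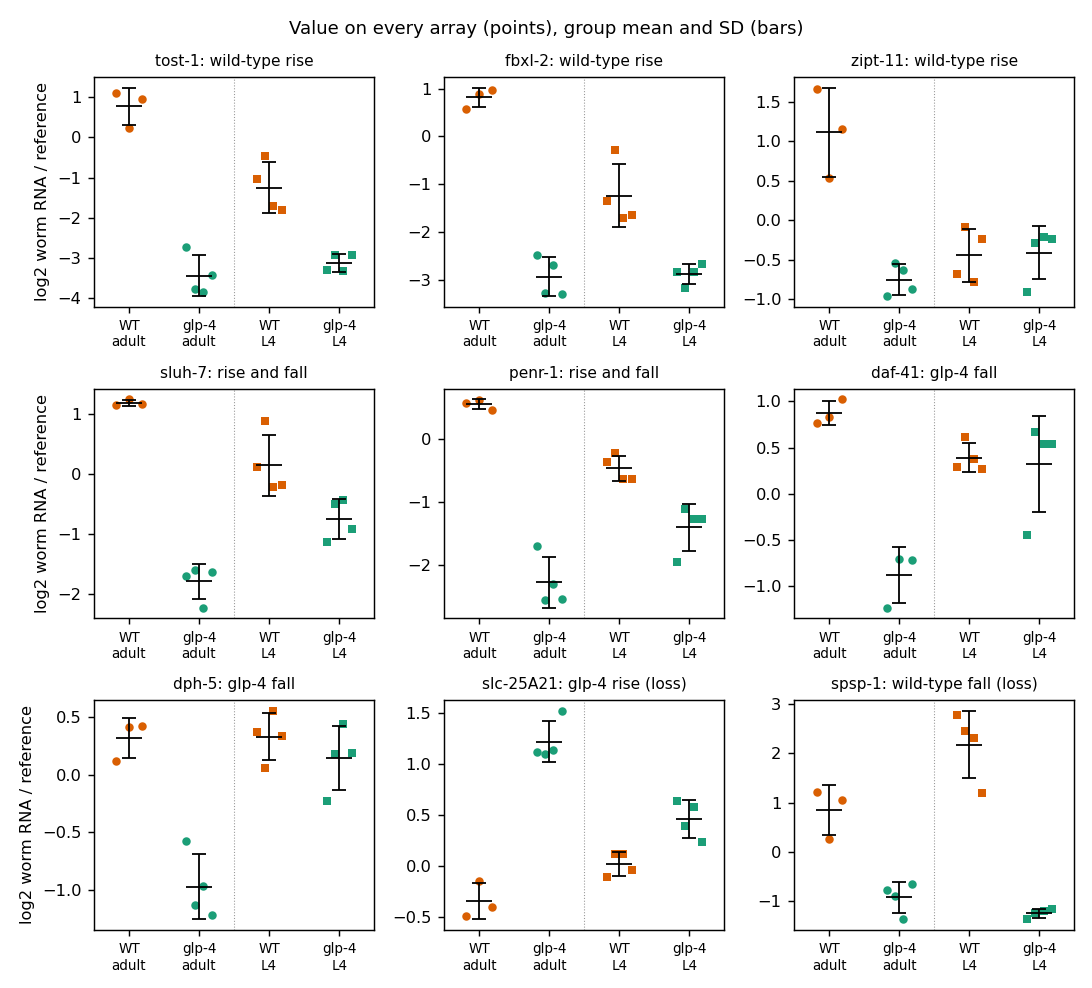
Log2 ratio of worm RNA over reference (y axis) on every array for 9 genes, with wild type left of glp-4 and adults (circles) left of L4 (squares); bars are group means ± SD. The change from L4 to adult was called in wild type alone for tost-1, fbxl-2 and zipt-11, in glp-4 alone for daf-41 and dph-5, and in both for sluh-7 and penr-1, while slc-25A21 and spsp-1 are losses.

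For most gains the strain difference was called in adults and not at L4. The adult and L4 values define the gains, so the counts and medians here describe the set and test nothing further. In adults, 21.0% of all probes were higher and 20.3% lower in wild type, and at L4 12.0% and 8.22%. Of the 539 gains, 206 were called higher in wild type at both stages, and 326 only in adults. A further 5 were called lower at L4 and in neither direction in adults, and 2 were not called at either stage. The median difference of the gains was 1.75 in adults and 0.42 at L4, and 83 gains had a negative estimate at L4 and a positive one in adults. tost-1 is an example of the first kind, with differences of 4.21 in adults and 1.87 at L4, and zipt-11 of the second.

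The L3 and L2 arrays are not part of the contrast. At L3, 2.2% of all probes were called higher and 1.08% lower in wild type, and the median of all probes was 0.02. The gains had a median of 0.30 at L3, with 442 of 539 positive, 44 called higher and 1 lower. At L2 their median was 0.28 over 530 probes and 446 were positive, against a median of 0.02 and 5274 of 10165 positive over all probes. No gain was called at L2, but of all 10165 probes only 23 were called higher and 20 lower there. Nothing is read from that count. fbxl-2 was 1.32 and tost-1 0.96 higher in wild type at L3, both called. The named gains nse-4, ctf-18, eif-2A, syf-1 and algn-6 were also called higher there, by 0.63 to 0.94. L2 and L3 arrays also entered the estimate of the spread of each probe.

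**Figure D3:**
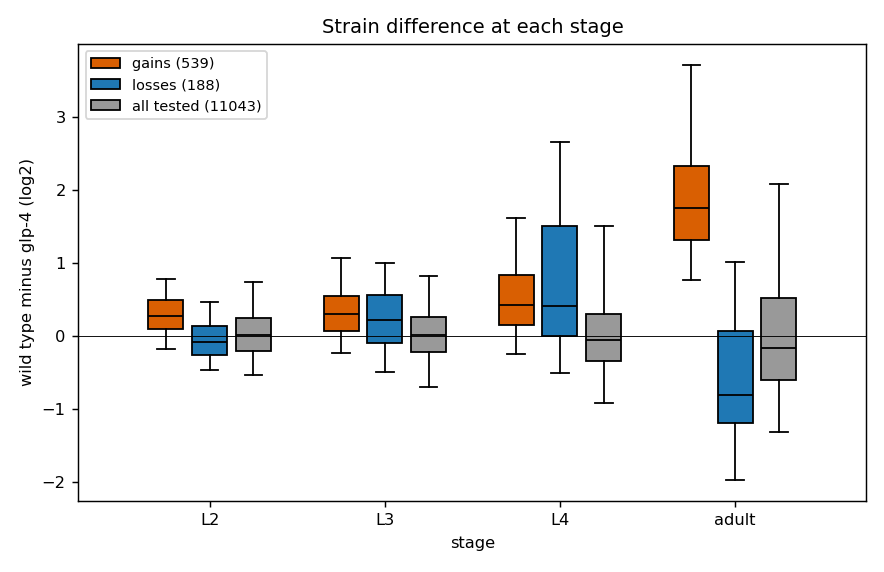
Wild type minus glp-4 difference per probe (y axis, log2) at L2, L3, L4 and in adults for gains, losses and all probes tested; boxes show quartiles and median, whiskers the 5th and 95th percentiles. The median of the gains was 0.28, 0.30, 0.42 and 1.75 over the 4 stages, and that of the losses -0.08, 0.21, 0.41 and -0.81; L4 and adult values define both sets.

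Lists of genes for splicing, chromosome maintenance, small RNA pathways, ribosome assembly and transcription each held gains in the fit of 29 arrays, but fewer or no gains with the 15 arrays alone. Over all 800 genes with a class symbol, 65 were gains and 10 losses, and the median growth was 0.00. With the 15 arrays alone 23 were gains and 2 losses, and with the batch block 0 and 0. Losses were so few among all 800 that nothing is read from 0 losses in a list. Splicing had 9 gains and 0 losses among 26 genes tested, with a median of 0.81. The gains were sluh-7, syf-1, cwf-19L1 (V, 1.24 ± 0.26), bcas-2 (III, 1.24 ± 0.31), rbmx-2 (II, 1.23 ± 0.37), prp-18 (IV, 1.16 ± 0.30), prp-9, rbm-17 (IV, 0.74 ± 0.22) and prcc-1 (IV, 0.72 ± 0.19). Of these, prp-9 changed through glp-4 alone and sluh-7 and syf-1 through both strains. A second probe of prp-18 was not called. With the 15 arrays alone 3 of the 9 kept the call, sluh-7, syf-1 and cwf-19L1.

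Meiosis, replication and chromosome maintenance had 5 gains and 0 losses among 18 genes, with a median of 0.80. They were pold-1 (V), the catalytic subunit of DNA polymerase delta, at 1.47 ± 0.41, ctf-18, nse-4 (IV), a subunit of the SMC5/6 complex, at 1.44 ± 0.36, gcna-1 (III), a germ cell nuclear protein, at 1.10 ± 0.28, and dscc-1 (I) at 1.02 ± 0.28. ctf-18 and dscc-1 encode subunits of 1 clamp loader complex. nse-4 was already 1.61 higher in wild type at L4 and 3.05 in adults, and its growth came from wild type alone. clsp-1 (I, 1.31 ± 0.44, adjusted p = 0.0754) did not pass. With the 15 arrays alone ctf-18 and gcna-1 kept the call and the other 3 lost it.

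Small RNA and germ granule genes had 3 gains and 0 losses among 12, with a median of 0.55. Beside tost-1 these were lotr-1 (I), a LOTUS and Tudor domain protein of germ granules, at 1.34 ± 0.38, and enri-2 (X), named for an effect on nuclear RNA interference, at 1.28 ± 0.32. enri-2 was 1.30 higher in wild-type adults, and its difference of 0.02 at L4 was not called. mip-1 (III) was 4.23 higher in wild-type adults and 3.08 at L4, and its growth of 1.16 ± 0.45 was not called (adjusted p = 0.129). Of the 3 gains, tost-1 kept the call with the 15 arrays alone.

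Ribosome biogenesis had 2 gains among 13 genes with a median of 0.80, dkc-1 (III), the dyskerin gene, at 1.34 ± 0.41 and krr-1. All 13 genes had a positive growth, beside 399 of all 800 class-symbol genes. Other lists were similar, with 25 of 26 genes positive in splicing and 17 of 18 in chromosome maintenance. Transcription had 4 gains among 13 with a median of 0.88, rpap-3 (IV, 1.29 ± 0.38), rpap-2 (III, 1.16 ± 0.31), gtf-2H3 (III, 1.08 ± 0.31), a TFIIH subunit, and tceb-3. The tRNA methylation genes trmt-6 and wdr-4 (III, 1.32 ± 0.30) were 2 of 4, eif-2A was 1 of 6 translation initiation genes, and the nucleoporin gene npp-24 (II, 0.98 ± 0.29) was 1 of 4 in nuclear pore and RNA export. Synthesis of GPI anchors and N-glycans had 2 of 10, pgap-1 (V, 1.29 ± 0.31) and algn-6 (II, 1.05 ± 0.24). These 6 lists had 0 losses. Beside 65 gains and 10 losses among all 800 class-symbol genes, nothing is read from that or from counts of 1 or 2 gains. With the 15 arrays alone neither ribosome gain passed (limma adjusted p 0.0627 for dkc-1 and 0.0948 for krr-1), nor did any of the 4 transcription gains (0.0526 for tceb-3 to 0.121 for gtf-2H3), npp-24, wdr-4 or pgap-1, while trmt-6, eif-2A and algn-6 did. The calls of dkc-1, rpap-3 and npp-24 were each lost in 15 of the other settings run. None of the list counts is a test, and the lists were written with earlier results of these data known.

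Other lists held no gain. Beside 65 gains and 10 losses among all 800 class-symbol genes, nothing is read from the counts of calls that follow. Mitochondrial genes had 0 calls among 15 with a median of 0.16, and neuropeptides and receptors 0 among 20 with a median of -0.24. Carboxylesterases had 0 among 27, the pals and irg genes 0 among 23, and the gtnt family 0 gains and 1 loss among 39. Of 3 genes listed as adult somatic, try-14 (X), ule-3 (V), named for expression in the uterine lumen, and stha-3 (X), all 3 rose in both strains. Among the 800 genes a rise was called for 117 in wild type and for 23 in glp-4. stha-3 rose by 3.09 in wild type and by 4.39 in glp-4, ule-3 by 1.98 in wild type and 3.05 in glp-4, and try-14 by 2.52 in wild type and 2.86 in glp-4. Their growth estimates of -1.30, -1.07 and -0.34 were not called. The 5 oocyte and chondroitin proteoglycan genes had 0 calls and a median of 0.17. Of these, memi-3 (IV) and oops-1 (IV) had growth estimates of 1.48 ± 0.50 and 1.17 ± 0.55 with limma adjusted p of 0.0742 and 0.22. The estimates of cpg-20 (IV), cpg-22 (I) and cpg-19 (X) were 0.17, -0.59 and -0.70. Both cpg-22 and cpg-19 fell in wild type, by 2.11 and 2.47, and in glp-4, by 1.52 and 1.77, all called. Among the 800 genes a fall was called for 97 in wild type and for 55 in glp-4.

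**Figure D4:**
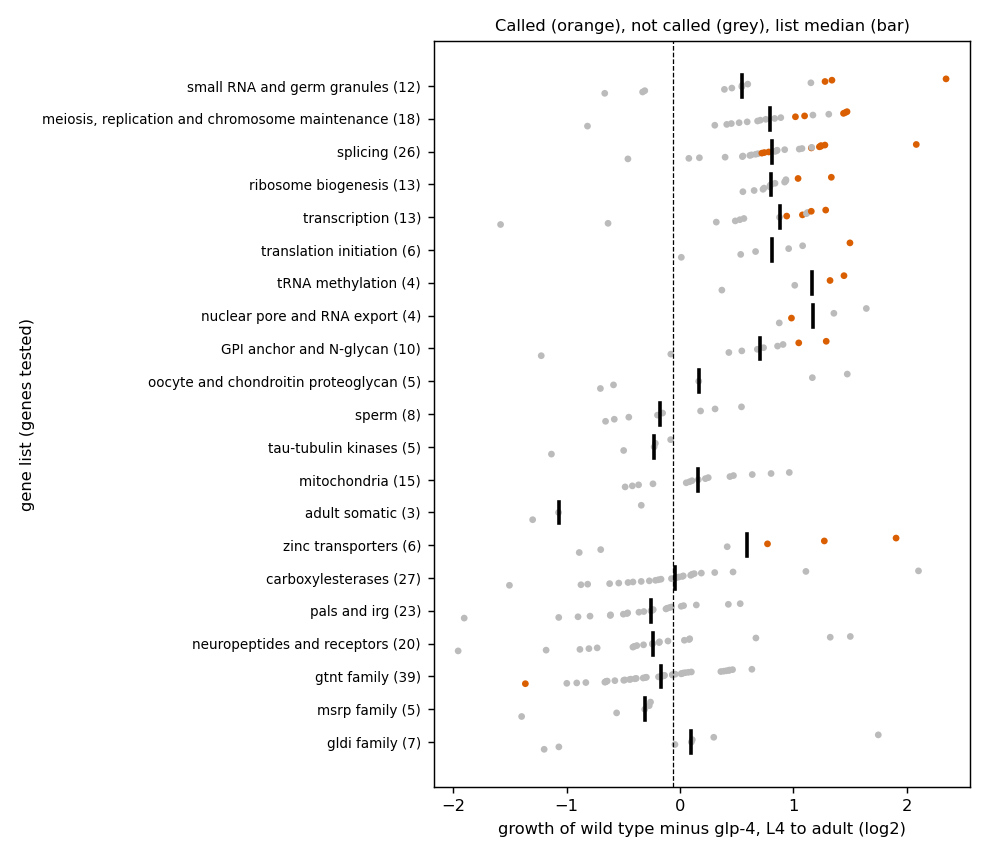
Growth of the wild type minus glp-4 difference from L4 to adult (x axis, log2) for each gene of 21 lists (y axis, with the number tested); orange points passed the test, grey did not, the bar is the list median and the dashed line the median of all probes, -0.06. Splicing genes have a median of 0.81, and the sperm, tau-tubulin kinase and msrp lists have medians of -0.18, -0.23 and -0.31.

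Among losses, spsp-1 (I) had the pattern of a gene high in wild-type L4 larvae. It had 1.21, 0.27 and 1.06 in wild-type adults, against -0.76, -0.88, -1.36 and -0.64 in glp-4 adults. At L4 it had 2.76, 2.44, 2.30 and 1.19 in wild type, against -1.36, -1.24, -1.19 and -1.15 in glp-4. Strains stood apart at both stages, wild-type stages overlapped by the low L4 replicate 4, and the difference was 1.76 in adults and 3.41 at L4. The growth was -1.65 ± 0.41 (adjusted p = 0.0198). With the 15 arrays alone its adjusted p was 0.067.

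txt-1 (II) had 0.03, 0.28 and 0.05 in wild-type adults, against -0.02, 0.41, -0.64 and 0.56 in glp-4 adults. At L4 it had 2.22, 1.31, 1.26 and 0.97 in wild type, against -0.30, -0.28, -0.10 and 0.11 in glp-4. The strains stood apart at L4 and overlapped in adults. nyn-3 (II), a gene of the NYN ribonuclease domain family by its name, had the same layout, with differences of 0.34 in adults and 1.98 at L4. phyh-1 (IV), a phytanoyl-CoA hydroxylase family gene, had differences of 0.63 in adults and 1.95 at L4.

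slc-25A21 (X), a mitochondrial carrier family gene, was a loss through glp-4. It had -0.48, -0.14 and -0.40 in wild-type adults, against 1.12, 1.10, 1.14 and 1.53 in glp-4 adults. At L4 it had -0.11, 0.12, 0.12 and -0.04 in wild type, against 0.64, 0.40, 0.58 and 0.24 in glp-4. The strains stood apart at both stages with glp-4 higher, glp-4 rose by 0.76, and the growth was -1.13 ± 0.21 (adjusted p = 0.00405). kola-5 (IV) rose by 1.00 in glp-4 and had a growth of -1.44 ± 0.43, C30G12.2 (II) rose by 2.08 with -2.55 ± 0.61, and anp-1 (V) rose by 1.21 with -1.43 ± 0.43.

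W02D7.4 (V) rose in both strains, by 0.90 in wild type and 3.03 in glp-4, and its wild type minus glp-4 difference was -0.72 in adults and 1.42 at L4. It had 0.64, 0.79 and 0.78 in wild-type adults, against 2.32, 1.08, 0.91 and 1.52 in glp-4 adults, and at L4 -0.08, 0.25, -0.18 and -0.63 in wild type, against -1.07, -1.49, -2.08 and -1.67 in glp-4. The strains stood apart at both stages, in opposite directions. amdh-1 (III), an amidohydrolase family gene by its name, fell by 1.43 in wild type, where adult replicate 4 stood at -2.36 beside -0.18 and -0.08; its growth was -2.29 ± 0.58 and its call was lost without that array. The largest loss, Y38H6C.13 (V) at -6.36 ± 1.57, rests on 2 values in each L4 group.

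The losses fell into kinds by the strain difference they started from. At L4, 74 of 188 were called higher in wild type, and in adults 21 of these were still higher, 52 were not called and 1 was lower. Another 99 were not called at L4 and lower in wild-type adults, 11 were lower at both stages and 4 were called at neither. In 90 losses the estimate was positive at L4 and negative in adults. The same values define the losses, so these counts are a description only.

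The arrays of fem-3 against fem-1 share no sample with the contrast and gave a readout of sperm against oocytes. Over all probes, 19.1% were higher and 16.7% lower in fem-3 worms, and the median was 0.14. The gains were mostly lower in fem-3: 408 of 539 (75.7%) were called lower and 3 higher, with a median of -0.90. Among gains with a wild-type rise only, 315 of 386 were lower, against 33 of 68 among those with a glp-4 fall only, with medians of -1.03 and -0.62. srdf-2.1, enri-2 and fbxl-2 were among the lowest named genes, at -2.07, -2.03 and -1.94, while zipt-11 (-0.31), gcna-1 (-0.21), zipt-3 (0.03), dph-5 (-0.22) and cdk-11.2 (-0.20) were not called.

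The losses were mixed on the same arrays, and the L4 state separated them. Of all 188, 92 (48.9%) were higher in fem-3 and 2 lower, with a median of 0.57. Of the 74 losses that were higher in wild type at L4, 64 (86.5%) were higher in fem-3 and 0 lower, their median was 3.13, and 61 of them reached a log2 ratio of 2. Of all 1330 probes higher in wild type at L4, 581 (43.7%) were higher in fem-3, with a median of 0.01. Of the 103 losses not called at L4, 28 were higher in fem-3 with a median of 0.31, and of the 11 that were lower at L4, 0. spsp-1, nyn-3, txt-1 and phyh-1 stood at 4.63, 4.44, 4.00 and 2.22, while slc-25A21, kola-5 and C30G12.2 stood at -0.13, 0.13 and -1.0 and were not called.

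Losses with a wild-type fall only were higher in fem-3 in 74 of 125 cases and those with a glp-4 rise only in 11 of 40. The fem arrays had 1 dye orientation, so a dye effect cannot be told apart from the strain effect. The title of 1 fem array calls it a repeat without naming the array it repeats, so the 5 arrays may stand for fewer samples. All 5 were counted as replicates; without that array 397 gains were lower in fem-3, and 84 losses, 64 of them higher in wild type at L4, were higher. No source used here states when the fem worms were shifted in temperature.

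**Figure D5:**
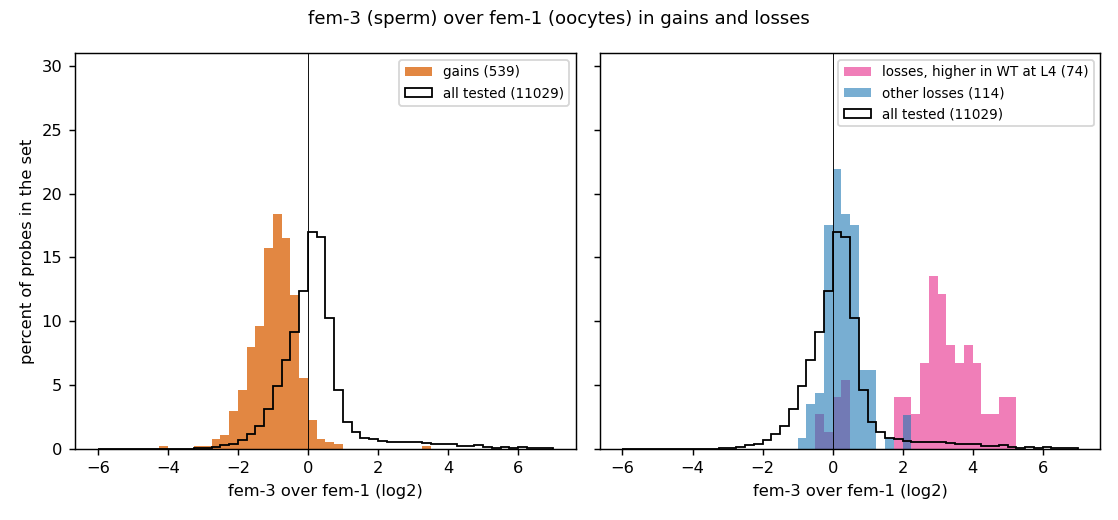
Percent of probes (y axis) by their fem-3 over fem-1 log2 ratio (x axis, mean of up to 5 arrays) for the 539 gains (left) and for losses split by the L4 strain difference (right), with all 11029 probes that have this ratio as an outline. Gains lie mostly below 0 (median -0.90), losses that were higher in wild type at L4 mostly near 3 (median 3.13), and the other losses near 0.

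The list of sperm genes had 8 members tested and a median growth of -0.18. Of these 0 were gains or losses, beside 65 gains and 10 losses among all 800 class-symbol genes, so nothing is read from that count. At L4 4 of the 8 were called higher in wild type, and in adults 3, beside 106 and 238 of the 800. The largest differences were those of spe-18 (II), 2.59 in adults and 3.04 at L4, and cylc-2, 4.03 in adults and 4.19 at L4. Others were small: spe-43 stood at 0.16 in adults and 0.36 at L4, and spe-51 at 0.40 and -0.14. Of 5 tau-tubulin kinase genes 0 were losses. A fall in wild type was called for 4 of them, beside 97 of the 800. These were ttbk-8.1 (IV) by 0.93, ttbk-4 (IV) by 0.86, ttbk-7 (V) by 0.68 and ttbk-6 (III) by 0.61. The 5 msrp genes tested had 0 calls, and 4 of them were higher in wild type at both stages.

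By chromosome, gains made up 7.96% of the probes tested on III, 6.31% on I, 4.80% on II, 4.79% on IV, 3.45% on V and 1.60% on X. On X there were 12 gains and 10 losses among 750 probes, against 199 gains (5.13%) and 83 losses (2.14%) among 3878 probes on the autosomes. srdf-2.1, enri-2 and cdk-11.2 are X-linked gains among the named genes, and slc-25A21 and mlck-1 (-1.07 ± 0.28) X-linked losses. The differences between chromosomes were not tested.

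Of the 54 named genes that were called, 13 kept the call in every setting run other than the fits with the batch block and with the mixed wording alone: tost-1, fbxl-2, sluh-7, zipt-11, penr-1, melo-2, sut-6, eif-2A, ctf-18, trmt-6 and syf-1 among gains, and W02D7.4 and slc-25A21 among losses. Just inside the threshold were phyh-1 (-1.32 ± 0.40, adjusted p = 0.0499) and gtnt-14 (V, -1.36 ± 0.42, 0.0498), and just outside nlp-53 (-0.88, 0.0507), luc-7L (II, 0.84 ± 0.26, 0.0508) and gldi-5 (1.75, 0.0527). Of the probes tested, 746 had only 2 values in at least 1 group, and 48 of these were called.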

How the data were processed

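Messenger RNA was measured on 34 spotted arrays with red and green channels. In the deposited table each probe has 1 value on each array, a log ratio of red over green read as log2. No source used here gives its base, normalization or spot filters, and spot intensities were not used here. Per the labels, red held the reference pool on 29 arrays, so their sign was turned to worm RNA over reference, and values ran from -7.92 to 10.2. Stages follow the subcategory in the labels. Array number limits the precision.

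All 29 arrays were fitted with limma 3.58.1 (R 4.3.3) as 8 group means with 1 spread per probe (prior degrees of freedom 2.4), with standard errors computed from the values present. The contrast was tested where each of 4 groups had at least 2 values, two-sided, with Benjamini-Hochberg adjustment over 11043 probes and a threshold of 0.05. The 5 fem arrays were fitted alone, against 0, with at least 3 values. The code was tested on simulated data. The labels number the batches, and the same numbers recur across groups without a statement that these were prepared together; the arrays carrying 1 number deviated together in part, and the block was kept as an alternative. The reported fit took all arrays as independent, and its spread includes the L2 and L3 arrays. Its p-values therefore set a change only against the pooled spread of these 29 arrays.

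Names came from the platform annotation (5582 probes, of which 5559 matched RefSeq, assembly WBcel235, which gave chromosomes). Probes that match several genes were not counted. Lists used 1 probe per gene, the one with the most values. The members and lists were chosen with earlier results of these data known. Named genes were the largest gains and losses with a class symbol, overall and by source class, up to 4 members per list by smallest adjusted p, the 3 largest each way with a sequence name only, and genes named in an earlier report; rbmx-2, prp-18, prp-9, rbm-17, prcc-1, clsp-1, luc-7L and cylc-2 were added after their values were seen. Promoter motifs were not analysed here. Tables used pandas 2.3.3 (Python 3.11.15). Alternatives changed the arrays fitted, centring, value minimum, blocks, variance prior and weights, and left out each array in turn.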

Additional observations from a re-analysis of the deposited data

Results flagged for a closer look

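In 300 groups of 4 values checked among the named genes, 15 had a highest or lowest array far from the other 3 by Dixon's rule, about the 1 in 20 that chance gives. Of these, 6 lay on glp-4 adult replicate 1, the array with another time code in its title: sut-6 at -0.95, rpap-2 at -0.87, dcaf-13 at -0.79, coa-6 at 0.15, gtnt-4 at -1.19 and nlp-55 at -1.49. On glp-4 L4 replicate 1, zipt-11 stood at -0.91, daf-41 at -0.45 and pals-32 at -0.81, and on glp-4 L4 replicate 4, npp-24 stood at -0.57. On glp-4 adult replicate 3, sluh-7 stood at -2.24 and irg-5 at 7.27, and on glp-4 adult replicate 4, slc-25A21 stood at 1.53. On wild-type L4 replicate 2, the array nearest to the adults, nifk-1 stood at 0.84 and gldi-3 at 0.11.

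The change from L4 to adult differed between the strains, by the test of the difference itself, for 539 gains and 188 losses. Among the named genes, wild type rose and glp-4 fell, both called, for sluh-7 (growth 2.08), penr-1 (1.88), ctf-18 (1.46), trmt-6 (1.45) and syf-1 (1.28).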

How the results depend on the processing

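Batch numbers recur across groups, and same-numbered arrays deviated together in part: over 21 pairs the correlation of their deviations ran from -0.13 to 0.28 (median 0.05, 8 above 0.1), against a median of -0.01 and a highest value of 0.28 over 63 other pairs. Whether a number marks a shared batch was not settled. With batch number as a replicate block (15 arrays), gains, losses and each of their source classes numbered 0, and falls in glp-4 407. Choices made after seeing the data concern the variance prior and the fem array titled as a repeat. Estimated from the tested probes only, the prior gave 560 gains and 196 losses. Joined with the block it gave 49 gains (29 wild-type rise only, 14 both, 6 glp-4 fall only, 0 neither) and 16 losses (11 wild-type fall only, 2 glp-4 rise only, 0 neither), with fem medians of -1.14 and 2.21. With the mixed wording only, gains, losses and their classes again numbered 0, the wild-type change had 4 calls higher and 19 lower, the glp-4 change 5 and 2, and the L4 difference 397 and 71.

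With the 15 arrays alone there were 199 gains (136 wild-type rise only, 22 both, 35 glp-4 fall only, 6 neither), 54 losses (40 wild-type fall only, 1 both, 12 glp-4 rise only, 1 neither) and 191 rises in glp-4, and the fem median of losses was 1.11. Centring each array gave 447 gains (39 glp-4 fall only) and 249 losses (6 both, 61 glp-4 rise only, 33 neither). Requiring a value on all 15 arrays left 1 loss in both strains. Wording as a block gave 94 gains and 58 losses with neither change called and 5 losses in both. Array weights gave 1379 gains (1039 wild-type rise only, 154 both, 117 glp-4 fall only), 707 losses (525 wild-type fall only, 17 both, 95 glp-4 rise only, 70 neither), a wild-type change called higher for 1930 and lower for 2199, 1560 lower at L4, an L3 median of losses of 0.039 and a fem median of losses of 0.38. Without wild-type L4 replicates 1 and 4, whose labels read L3 and L34, there were 100 gains (55 wild-type rise only, 16 both, 25 glp-4 fall only, 4 neither) and 32 losses (21 wild-type fall only, 8 glp-4 rise only, 1 neither). In that setting the wild-type change had 308 calls higher and 481 lower, and 557 probes were lower at L4. There the L2 median was 0.34 for gains and turned positive for losses (0.013), and the fem medians were -1.04 and 2.81. The cause of these shifts was not tested.

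Leaving out 1 array at a time gave 214 to 873 gains (136 to 679 wild-type rise only, 20 to 58 both, 23 to 88 glp-4 fall only, 19 to 72 neither) and 46 to 302 losses (32 to 200 wild-type fall only, 0 to 6 both, 8 to 58 glp-4 rise only, 4 to 42 neither). The wild-type change was then called higher for 595 to 1422 and lower for 708 to 1494 probes, the glp-4 change for 148 to 328 and 395 to 693, and the L4 difference lower for 591 to 1017. The L2 median of losses ran from -0.11 to -0.0055 and their fem median from 0.42 to 1.02. Over 27 settings, the growth of the 54 called named genes kept direction and call in 966 values and lost the call in 454, with 0 reversed.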
